A study of Homo sapiens with 31 samples.

Results

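The matrix metalloproteinases (MMP), the ADAMTS proteases and their tissue inhibitors (TIMP) were taken by gene symbol from an RNA-sequencing table. It covers cell lines that the study used as models of ovarian cancer. Symbols of MMP, ADAMTS or TIMP followed by the member's number gave 46 of the 19221 genes used, namely 23 MMP, 19 ADAMTS and 4 TIMP genes. Of these, 26 were expressed highly enough to be tested in at least 1 of the 2 comparisons of the study, and 20 were tested in neither. mRNA came from 31 libraries in 4 labelled groups. C13*, a cisplatin-resistant line with intact homologous recombination, carried either a control shRNA (shCON, n = 7) or an shRNA against CEBPB (shCEBPB, n = 8), both delivered by lentivirus and kept as stably transfected cells. A2780 (n = 8) is a line sensitive to olaparib, a PARP inhibitor, and A2780 OlaR (n = 8) is the strain obtained from it by culture in rising doses of that drug. The study itself questions the use of C13* because of its origin. It also cites a report that A2780 is an unlikely model of high-grade serous ovarian cancer. The comparison within C13* asked what changed when C/EBPβ, a transcription factor, was depleted, and the comparison within A2780 asked what differed after resistance had been acquired. The labels do not say whether clones or repeat derivations of the shRNA line or of the resistant strain were sampled, so libraries are not read as independent derivations.

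MMPs are zinc-dependent endopeptidases that cut collagens, gelatin, laminins and other matrix proteins, and also release growth factors and receptors from the cell surface. They are made as inactive precursors, and some are secreted while the membrane-type members stay on the cell. ADAMTS proteases are secreted, carry thrombospondin repeats and cut proteoglycans, procollagens and von Willebrand factor. TIMPs bind the active site of MMPs and block it, and TIMP3 also blocks several ADAMTS enzymes. In ovarian cancer this system is studied for its part in invasion and in the spread of cells through the peritoneum.

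Values are FPKM, fragment numbers corrected for gene length and library size, which allow levels of different genes to be set side by side. The FPKM of a library summed to between 417556 and 454578, and relative depth, read from the steps of values under 0.1 FPKM, differed by at most 1.42 times between libraries. Absolute depth is unknown. CEBPB, the target of the shRNA, was between 75.2 and 100.7 FPKM in shCON and between 30.2 and 58.7 FPKM in shCEBPB. It was between 97.1 and 126.9 FPKM in A2780 OlaR and between 85.6 and 111 FPKM in A2780, and these 2 ranges overlapped. The study describes a pronounced rise of C/EBPβ in A2780 OlaR, citing western blots and mRNA quantification. Across 12967 genes, the libraries labelled A2780 OlaR lay close to C13* shCON (Pearson's r of the group means 0.993 on the log2 scale, 69 genes or 0.532% apart by at least 2-fold) and far from A2780 (r = 0.709, 4517 genes or 34.8%). The shCON and shCEBPB groups, labelled as the same line, were also far apart (r = 0.791, 3585 genes or 27.6%). In shCON and A2780 OlaR the 4 squamous markers (KRT5, KRT14, KRT6A and TP63) summed to at least 1532 FPKM, and in shCEBPB and A2780 they summed to at most 0.316 FPKM. The 6 mesenchymal markers, almost all VIM, summed to at most 10.6 FPKM in shCON and 0.322 FPKM in A2780 OlaR, but to at least 331 FPKM in shCEBPB and 804 FPKM in A2780. The 5 epithelial markers summed to at most 93.3 FPKM in A2780 and to at least 939 FPKM in each other group, but they did not move together. In shCEBPB, KRT7, KRT8 and KRT18 were higher than in shCON, while EPCAM (at most 0.874 against at least 106 FPKM) and CDH1 (at most 0.900 against at least 76.5 FPKM) were near 0, as they were in A2780. The ovarian markers PAX8, WT1, MUC16 and SOX17 together stayed at or under 7.82 FPKM in every library, but they did not move together. PAX8 was between 5.18 and 6.93 FPKM in shCON and A2780 OlaR and at most 0.673 FPKM in shCEBPB and A2780. SOX17 (1.15 to 2.42 FPKM) and MUC16 (0.432 to 0.881 FPKM) were highest in shCEBPB, and at most 0.0241 and 0.130 FPKM elsewhere. Among blood markers PTPRC was between 75.7 and 102.5 FPKM in A2780 and at most 0.0144 FPKM elsewhere, while CD14 and CSF1R stayed under 1 FPKM in all groups. CD68 went the other way, with 62.5 to 69.97 FPKM in shCON, 37.5 to 45.3 FPKM in A2780 OlaR, 10.5 to 13.1 FPKM in shCEBPB and 1.71 to 2.70 FPKM in A2780. The part of these differences between the cells in the results on proteases was not tested. Groups are used as labelled, and whether the labels match the cells sequenced, those of A2780 OlaR in particular, was not tested. Whether a difference between A2780 OlaR and A2780 came with olaparib selection or with another difference between these cells cannot be told apart. The same holds for shCEBPB against shCON and depletion of C/EBPβ, so that "after knockdown" stands below for shCEBPB compared with shCON. In bulk RNA, fewer cells that express a gene and less RNA per cell cannot be told apart either. Replicate 1 of shCON has A2780 in its cell line field although its title names C13*, and each count of calls was also computed without it.

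The mRNA levels of proteases and inhibitors differed between the groups. Active enzyme and inhibitor protein were not measured in these libraries. After knockdown of C/EBPβ, the membrane-bound MMP14 fell from a median of 88.2 to 0.0901 FPKM and the secreted MMP28 from 28.7 to 0.997 FPKM, MMP17 rose from 1.78 to 23.3 FPKM, and all 4 TIMP genes rose. The ADAMTS genes tested went both ways. ADAMTS7, ADAMTS10, ADAMTS15 and ADAMTS5 rose, all but ADAMTS7 from near 0 in shCON, while ADAMTS1, ADAMTS13 and ADAMTS16 fell. In A2780, by contrast with A2780 OlaR, the collagenase and stromelysin genes MMP10, MMP1 and MMP3 were among the most abundant members, together with TIMP1. The A2780 OlaR libraries had MMP14, MMP28 and TIMP3 where A2780 had little or none.

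**Figure D1:**
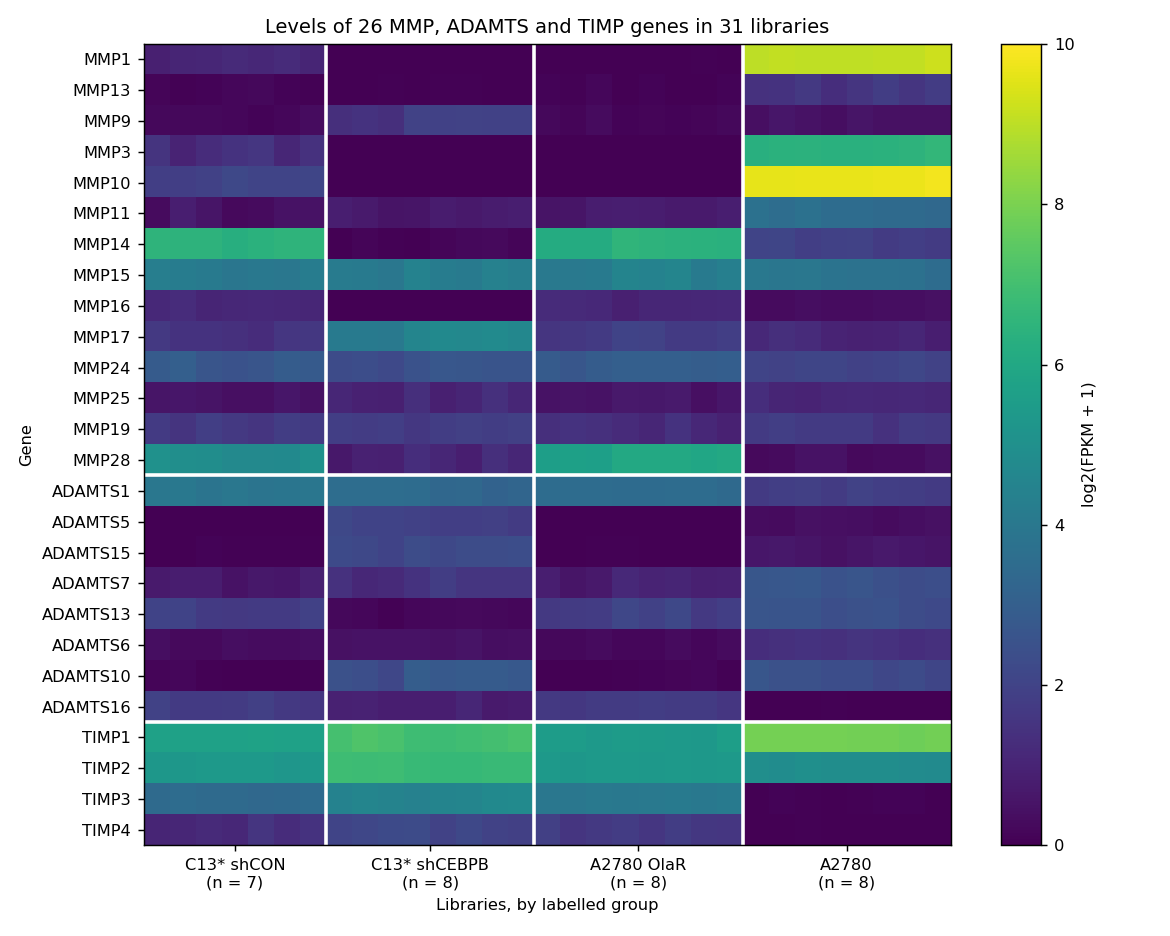
Level of each of the 26 tested members (rows, grouped as MMP, ADAMTS and TIMP genes) in each of the 31 libraries (columns, by labelled group), as log2(FPKM + 1) on a colour scale from dark (0) to yellow (10). MMP10, MMP1 and MMP3 are bright in the 8 A2780 libraries alone, and MMP14 and MMP28 are bright in shCON and A2780 OlaR.

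Changes were tested with limma on log2(FPKM + 1) over all genes that reached 1 FPKM in at least 7 (C13*) or 8 (A2780) of the libraries compared, with Benjamini-Hochberg adjustment. A gene with an adjusted p under 0.05 is called here, and the median log2 change of all tested genes was subtracted from each log2 change, which is given with its standard error (SE). In shCEBPB against shCON, 20 of the 21 members tested were called (11 higher, 9 lower), beside 84.7% of all 12006 genes tested (38.9% higher, 45.7% lower). The ranges of the groups did not overlap in 18 of these 21 members, beside 66% of all genes. In A2780 OlaR against A2780 all 22 members tested were called (10 higher, 12 lower), beside 89.8% of 12458 genes (40.1% higher, 49.7% lower), and 21 had ranges that did not overlap, beside 74.1%. Most genes tested were thus called in each comparison, and a call alone says little about a member. A gene high in 1 group alone can pass the filter, so the shares of ranges that did not overlap are not read as a trait of the members. The difference from all genes was not tested. The median log2 change of the members tested was 0.19 after knockdown (-0.63 for 10 MMP, 0.81 for 7 ADAMTS and 1.27 for 4 TIMP genes). In A2780 OlaR against A2780 it was -0.38 (-0.38 for 12 MMP, -0.77 for 6 ADAMTS and 1.21 for 4 TIMP genes). Many members, such as MMP9 and ADAMTS5 in shCEBPB or MMP1 and MMP11 in A2780, entered the test only through the group in which they were high. Their counts, of calls and of ranges that did not overlap, carry no weight of their own.

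**Figure D2:**
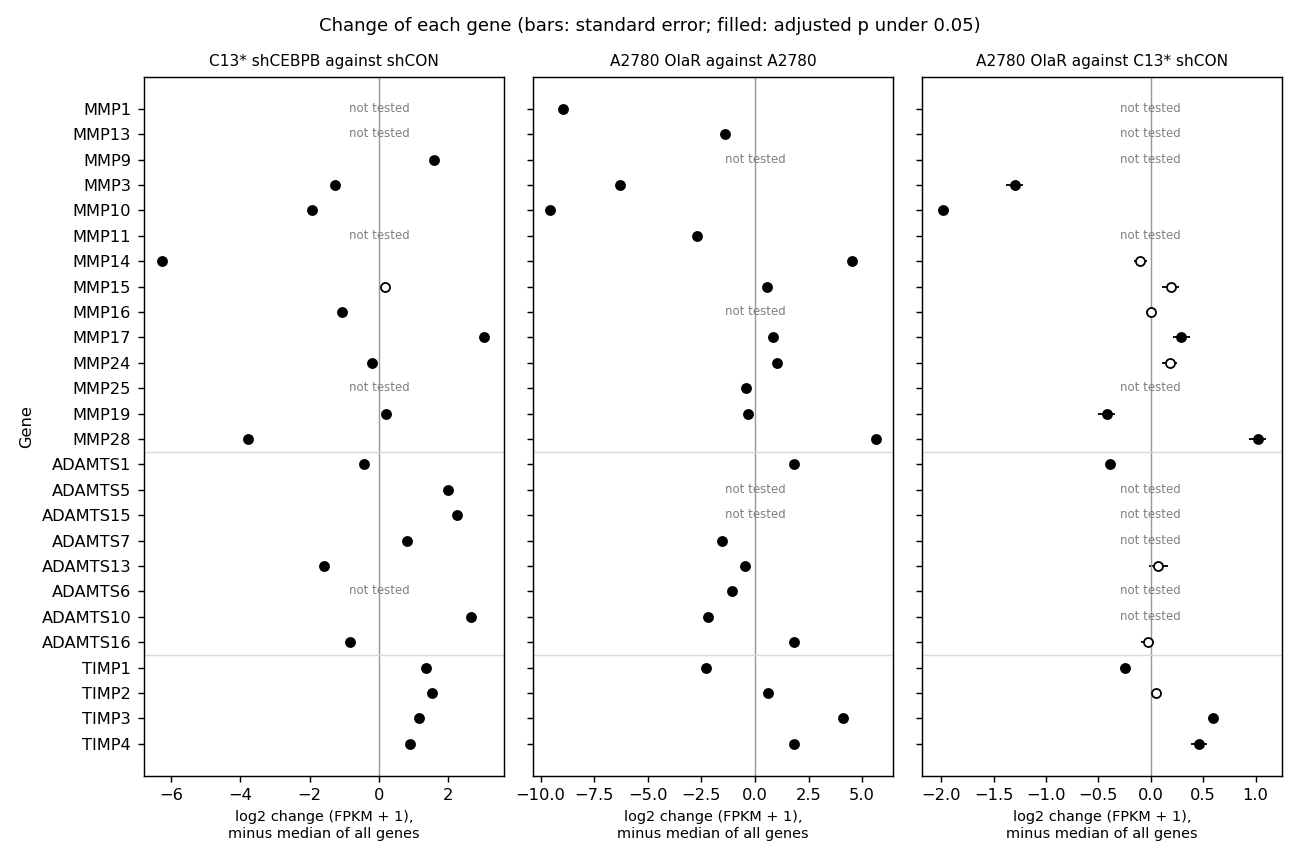
Log2 change of each of the 26 members on the log2(FPKM + 1) scale, minus the median of all genes tested, in 3 comparisons with axes of different width. Points are limma estimates, bars are standard errors (mostly hidden by the points), filled points have an adjusted p under 0.05, and MMP14 and MMP28 lie far left in the first panel and far right in the second.

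Of the 23 MMP genes, 9 lie side by side in a cluster on chromosome 11 (chr11:102520508-102955732 in hg38), all on the minus strand, in the order MMP7, MMP20, MMP27, MMP8, MMP10, MMP1, MMP3, MMP12 and MMP13. The 3 genes in the middle of it had the largest log2 changes of all members in A2780 OlaR against A2780. MMP10 (chr11:102770502-102780628), MMP1 (chr11:102789401-102798160) and MMP3 (chr11:102835801-102843609) encode stromelysin-2, interstitial collagenase and stromelysin-1, which also activates other MMP precursors. The 250 bases before the RefSeq starts (GRCh38.p14, gene strand) of MMP10, at chr11:102780629-102780878, MMP7, at chr11:102530748-102530997, and MMP20, at chr11:102625333-102625582, are shown because they are the cluster promoters that hold the letters TGANTCA, printed in capitals, which AP-1 factors are known to bind.
MMP10: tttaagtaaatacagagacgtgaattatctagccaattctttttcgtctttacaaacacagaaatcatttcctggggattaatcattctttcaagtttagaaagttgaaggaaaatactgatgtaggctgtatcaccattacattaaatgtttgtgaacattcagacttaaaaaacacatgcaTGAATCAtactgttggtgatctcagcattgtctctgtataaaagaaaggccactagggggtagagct
MMP7: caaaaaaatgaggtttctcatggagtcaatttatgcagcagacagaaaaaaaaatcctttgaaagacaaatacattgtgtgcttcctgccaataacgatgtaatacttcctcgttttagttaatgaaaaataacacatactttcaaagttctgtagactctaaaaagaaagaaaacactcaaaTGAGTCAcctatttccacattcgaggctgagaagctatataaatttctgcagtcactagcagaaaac
MMP20: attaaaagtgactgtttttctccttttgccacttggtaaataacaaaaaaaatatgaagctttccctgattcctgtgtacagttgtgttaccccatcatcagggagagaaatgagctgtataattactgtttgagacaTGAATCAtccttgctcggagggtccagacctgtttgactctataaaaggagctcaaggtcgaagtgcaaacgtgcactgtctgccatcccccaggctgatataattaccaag
The match in MMP10 lay 67 to 61 bases before the start, that in MMP7 at the same distance, and that in MMP20 112 to 106 bases before it. TGANTCA, which reads the same on both strands, was found in 4 of the 27 member promoters in the RefSeq table (14.8%, the other being ADAMTS12), beside 1801 of all 27305 promoters (6.6%). The letters TTGCNNAA, searched on both strands as a partial form of C/EBP sites, were found in 1 member promoter (MMP8, 3.7%) and in 9.13% of all promoters. A match is a description of these bases only, and MMP7 and MMP20, which hold one as well, stayed near 0. Promoters of MMP1, MMP3, MMP12 and MMP13 are among 19 that were not in the table.

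MMP10 was between 783 and 899.8 FPKM in A2780 (median 817), between 2.64 and 3.51 FPKM in shCON (median 3.11), and listed at 0 in all 8 libraries of A2780 OlaR and all 8 of shCEBPB. The level in A2780 was thus the highest of any member in any group. MMP1 was between 516 and 603 FPKM in A2780 (median 535) and between 0.817 and 1.35 FPKM in shCON (median 1.13). In shCEBPB and A2780 OlaR it was at 0 in most libraries and at most 0.0242 and 0.0292 FPKM. MMP3 followed with 78.5 to 97.8 FPKM in A2780 (median 83.1), 1.01 to 1.96 FPKM in shCON, and 0 in every library of shCEBPB and A2780 OlaR. In each of the 3 genes the order was therefore A2780, then shCON, then the other groups at or near 0, with no overlap between these steps. MMP10 and MMP3 were called lower in A2780 OlaR than in A2780 (adjusted p = 9.76e-32 and 1.27e-27, limma) and lower in shCEBPB than in shCON (adjusted p = 1.04e-17 and 6.49e-12), and no fold is given against groups listed at 0. MMP1 was lower in A2780 OlaR by a log2 change of -8.96 (SE 0.03, adjusted p = 4.50e-31, limma). Between the C13* groups it was under the limit for the limma test, and the exact permutation test of its log2 levels gave p = 3.11e-04 (two-sided), the smallest these libraries can give. MMP3 and MMP10 are close paralogs, and how reads that match both were counted is not given in the sources used here. MMP1 shares 223 bp and MMP3 shares 32 bp of exon with the transcribed pseudogene WTAPP1 on the opposite strand, and whether counting used the strand is not given either.

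MMP13, a collagenase at the end of the cluster, was between 1.47 and 2.51 FPKM in A2780 and at most 0.162 FPKM in any other library, and was called lower in A2780 OlaR than in A2780 (log2 change -1.38, SE 0.06, adjusted p = 7.35e-15, limma). MMP12, the macrophage elastase, was between 0.646 and 1.61 FPKM in A2780 and at most 0.146 FPKM elsewhere, and was not tested. MMP8, the neutrophil collagenase, and MMP27 were above 0 in every A2780 library, at most at 0.457 and 0.252 FPKM, and listed at 0 in all other libraries. In A2780 the median level thus decreased from the middle of the cluster to both sides, except that MMP13 was above MMP12. MMP20, the enamel protease, reached at most 0.151 FPKM. MMP7, matrilysin, at the other end, was highest in shCEBPB, at most 0.454 FPKM, and was at 0 or at most 0.0423 FPKM in A2780. The protein-coding neighbours of the cluster were expressed in all groups. Of the 16 coding genes from 500 kb before the cluster to 500 kb after it, 15 were in the table. The 6 that are no MMP genes (YAP1, BIRC3, BIRC2, TMEM123, DCUN1D5 and DYNC2H1) were all called lower in A2780 OlaR than in A2780, beside 49.7% of all genes tested. The log2 changes of these 6 genes ran from -0.39 (TMEM123, SE 0.06) to -1.86 (BIRC3, SE 0.09), far less than those of the 3 MMP genes in the middle. In shCEBPB against shCON the same neighbours went in both directions, from -0.23 in TMEM123 to 0.41 in YAP1, and BIRC3, BIRC2 and DCUN1D5 were not called.

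**Figure D3:**
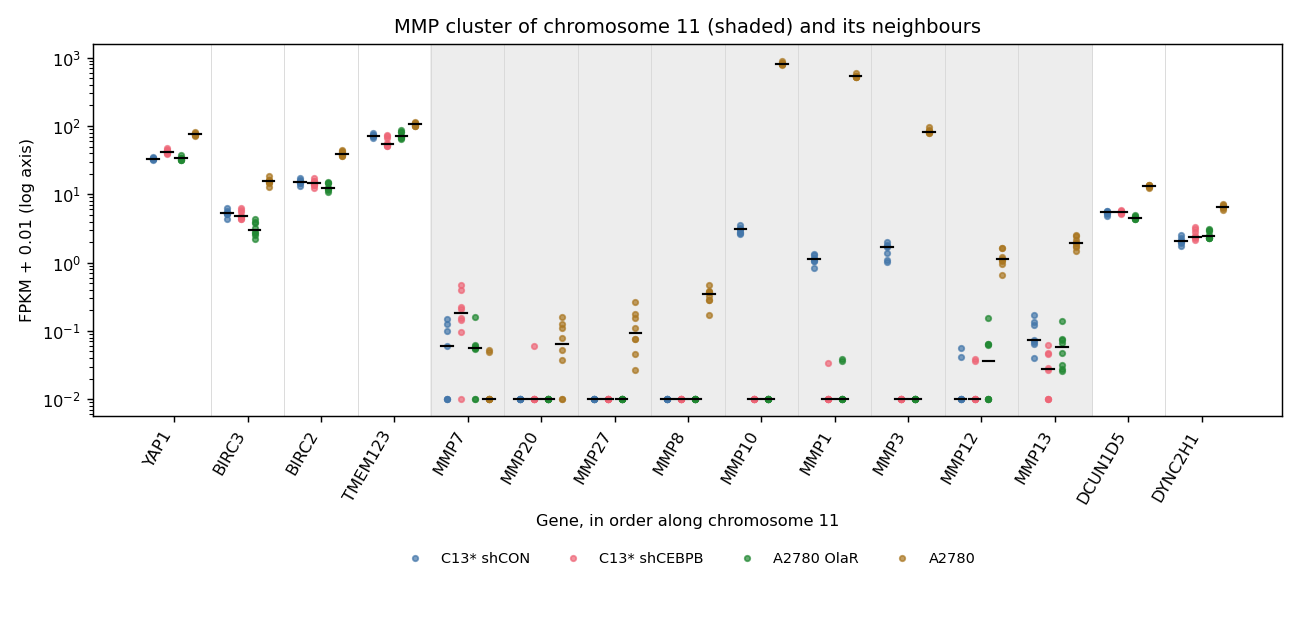
FPKM + 0.01 (log axis) of the 9 MMP genes of the chromosome 11 cluster (shaded) and the 6 neighbouring coding genes in the table, in order along the chromosome. Each point is a library, coloured by labelled group, lines are group medians, and points at 0.01 are libraries listed at 0. In A2780 (brown) the medians climb to 817 FPKM at MMP10 and fall off to both sides, with MMP13 above MMP12, while the neighbours differ far less between groups.

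MMP14, the membrane-type enzyme that activates the MMP2 precursor together with TIMP2, was the leading MMP gene of shCON and A2780 OlaR. It lies at chr14:22836560-22849041. It was between 76.9 and 90.0 FPKM in shCON (median 88.2) and between 69.6 and 92.4 FPKM in A2780 OlaR (median 81.4). In A2780 it was between 2.32 and 3.23 FPKM (median 2.72), and in shCEBPB between 0 and 0.197 FPKM (median 0.0901). The first 2 groups overlapped, and A2780 and shCEBPB stood apart from them and from each other. MMP14 fell after knockdown (log2 change -6.26, SE 0.05, adjusted p = 4.55e-24, limma), the largest fall of any member there. It was higher in A2780 OlaR than in A2780 (log2 change 4.55, SE 0.07, adjusted p = 8.27e-22). MMP2 itself, the gelatinase that MMP14 activates, was at most 0.276 FPKM in any library, and was not tested.

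MMP17, a membrane-type MMP held by a lipid anchor, moved the other way. It was between 1.40 and 2.16 FPKM in shCON (median 1.78) and between 15.6 and 26.8 FPKM in shCEBPB (median 23.3), with no overlap. It rose after knockdown by a log2 change of 3.03 (SE 0.12, adjusted p = 7.03e-14, limma), which made it the leading MMP gene of shCEBPB by group mean, although MMP15 was above it in replicates 1 and 2. Libraries 1 to 3 of shCEBPB were the low ones, at 15.6 to 16.2 FPKM, and with libraries 1 to 3 of both groups the log2 change was 2.63, against 3.30 with libraries 4 to 8. This step was not particular to MMP17. In shCEBPB, libraries 1 to 3 were also low for COL4A2 (60.1 to 83.2 against 93.3 to 118.8 FPKM). They were high for ADAM10 (26.1 to 26.9 against 19.5 to 21.4 FPKM), and MMP19 overlapped. In A2780 OlaR they were low for MMP14 (69.6 to 70.6 against 81.2 to 92.4 FPKM) and MMP28 (47.6 to 49.96 against 58.8 to 65.3 FPKM). The cause was not tested. MMP17 was between 1.91 and 3.02 FPKM in A2780 OlaR and between 0.788 and 1.52 FPKM in A2780, and was called higher in the former (log2 change 0.83, SE 0.08, adjusted p = 5.00e-08, limma).

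MMP15, also membrane-bound, was the most even MMP gene. It was between 14.1 and 18.2 FPKM in shCON (median 16.4) and between 14.6 and 20.4 FPKM in shCEBPB (median 17.1), and these ranges overlapped. Its log2 change after knockdown was 0.18 (SE 0.07, adjusted p = 0.142, limma), so it was not called. It was -0.03 with libraries 1 to 3 (adjusted p = 0.189), and it was called with libraries 4 to 8 (0.34, adjusted p = 0.00519) and without shCEBPB replicate 3 (0.22, adjusted p = 0.0462). It was between 15.4 and 22.3 FPKM in A2780 OlaR (median 17.8) and between 10.6 and 14.9 FPKM in A2780 (median 12.9), and was called higher in A2780 OlaR (log2 change 0.57, SE 0.08, adjusted p = 4.04e-05).

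MMP24, a membrane-type MMP best known from the nervous system, was between 4.76 and 7.07 FPKM in shCON (median 6.16) and between 3.58 and 5.60 FPKM in shCEBPB (median 4.91). The groups overlapped, and the log2 change was -0.20 (SE 0.09, adjusted p = 0.00976, limma). It was -0.47 with libraries 1 to 3 and -0.02 with libraries 4 to 8, where it was not called (adjusted p = 0.277). MMP24 was between 5.43 and 7.22 FPKM in A2780 OlaR (median 6.83) and between 2.83 and 3.32 FPKM in A2780 (median 3.09), without overlap, and was higher in A2780 OlaR by a log2 change of 1.03 (SE 0.05, adjusted p = 8.73e-13). It shares 806 bp of exon with MMP24OS on the opposite strand. MMP16 was at 1.19 ± 0.116 FPKM in shCON (SD, n = 7) and 1.16 ± 0.151 FPKM in A2780 OlaR (SD, n = 8), was listed at 0 in all 8 shCEBPB libraries, and was called lower after knockdown (adjusted p = 1.16e-15, limma). MMP25, which shares 1454 bp with its antisense gene, was tested only in A2780 OlaR against A2780, where it was lower (0.494 ± 0.115 against 1.18 ± 0.147 FPKM, SD, n = 8 each, log2 change -0.43, SE 0.05, adjusted p = 5.46e-09). Of the 6 membrane-type genes, 5 were tested in each comparison. After knockdown 1 rose, 3 fell and 1 was not called, beside 38.9% higher and 45.7% lower of all genes tested. In A2780 OlaR 4 were higher and 1 was lower than in A2780, beside 40.1% and 49.7%.

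MMP28, epilysin, a secreted MMP of epithelia, lies at chr17:35756249-35795707. It was between 25.2 and 32.2 FPKM in shCON (median 28.7) and between 0.560 and 1.55 FPKM in shCEBPB (median 0.997). It was between 47.6 and 65.3 FPKM in A2780 OlaR (median 61.5) and between 0.207 and 0.420 FPKM in A2780 (median 0.234). The 4 groups did not overlap at all, in the order A2780 OlaR, shCON, shCEBPB and A2780. MMP28 fell after knockdown (log2 change -3.79, SE 0.10, adjusted p = 5.19e-17, limma) and was higher in A2780 OlaR than in A2780 (log2 change 5.63, SE 0.07, adjusted p = 1.22e-22).

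MMP11, stromelysin-3, which leaves the cell already activated by furin, was between 9.48 and 12.4 FPKM in A2780 (median 10.6) and at most 0.805 FPKM in any other library. It was called lower in A2780 OlaR than in A2780 (log2 change -2.70, SE 0.06, adjusted p = 1.84e-19, limma) and was not tested in C13*. MMP9, gelatinase B, was between 1.52 and 2.96 FPKM in shCEBPB and between 0.0566 and 0.250 FPKM in shCON, and rose after knockdown (log2 change 1.60, SE 0.10, adjusted p = 1.47e-10). Its change was 1.25 with libraries 1 to 3 and 1.83 with libraries 4 to 8, and it shares 430 bp of exon with SLC12A5-AS1 on the opposite strand. MMP19 differed little between the groups, with means from 1.40 ± 0.327 FPKM in A2780 OlaR to 2.52 ± 0.208 FPKM in shCEBPB (SD, n = 8 each). After knockdown its log2 change of 0.19 (SE 0.06, adjusted p = 0.0471, limma) just passed the threshold, did not pass in 12 of 15 fits that left out a single library, and had overlapping ranges. It was lower in A2780 OlaR than in A2780 (log2 change -0.32, SE 0.08, adjusted p = 2.65e-05), also with overlapping ranges, and it shares 821 bp of exon with TMEM198B on the opposite strand.

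The ADAMTS genes were low in all groups, and ADAMTS1 led them in 3 of the 4. ADAMTS1, which cuts versican and aggrecan, was between 13.2 and 14.99 FPKM in shCON (median 14.3) and between 7.88 and 11.01 FPKM in shCEBPB (median 10.0). It was between 9.83 and 10.7 FPKM in A2780 OlaR (median 10.5) and between 2.24 and 2.88 FPKM in A2780 (median 2.55). Within each comparison of the study the groups did not overlap. It fell after knockdown (log2 change -0.42, SE 0.07, adjusted p = 1.83e-06, limma) and was higher in A2780 OlaR than in A2780 by a log2 change of 1.82 (SE 0.04, adjusted p = 1.26e-18). ADAMTS5, a major aggrecan-cutting enzyme of cartilage, was between 2.34 and 3.50 FPKM in shCEBPB, at 0 in all shCON libraries but 1, and at most 0.380 FPKM in A2780. ADAMTS15, of the same subgroup, was between 2.98 and 4.12 FPKM in shCEBPB and at most 0.0562 FPKM in shCON. Both rose after knockdown (log2 change 2.0 and 2.25, SE 0.05 each, adjusted p = 1.31e-16 and 1.26e-17, limma), on a scale that compresses changes from near 0. ADAMTS4 and ADAMTS8, of that subgroup too, were under the limit for the test but were highest in shCEBPB, at 0.327 to 0.544 and 0.770 to 1.71 FPKM, against at most 0.0617 and 0.0311 FPKM in shCON. ADAMTS20 went the other way, with 0.388 to 0.749 FPKM in shCON and 0 in every shCEBPB library.

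ADAMTS10, which acts on fibrillin microfibrils, was between 3.43 and 6.73 FPKM in shCEBPB (median 5.87) and between 0.00651 and 0.122 FPKM in shCON. It was between 3.28 and 5.39 FPKM in A2780 (median 4.11) and at most 0.138 FPKM in A2780 OlaR. It was thus present in shCEBPB and A2780 and near 0 in the other groups, called higher after knockdown (log2 change 2.66, SE 0.10, adjusted p = 4.25e-14, limma) and lower in A2780 OlaR than in A2780 (log2 change -2.17, SE 0.07, adjusted p = 3.47e-17). ADAMTS7, which cuts cartilage oligomeric matrix protein, was between 4.004 and 5.65 FPKM in A2780, between 1.16 and 2.50 FPKM in shCEBPB and at most 1.23 FPKM in the other groups. It was called higher after knockdown (log2 change 0.81, SE 0.09, adjusted p = 4.07e-07) and lower in A2780 OlaR than in A2780 (-1.56, SE 0.08, adjusted p = 8.70e-14). ADAMTS13, the von Willebrand factor protease, was at 2.55 ± 0.388 FPKM in shCON (SD, n = 7) and 0.132 ± 0.0462 FPKM in shCEBPB (SD, n = 8), and fell after knockdown (log2 change -1.58, SE 0.06, adjusted p = 1.06e-14, limma). It was lower in A2780 OlaR than in A2780 as well, at 2.68 ± 0.523 against 4.56 ± 0.543 FPKM (SD, n = 8 each, log2 change -0.48, SE 0.08, adjusted p = 8.74e-07). ADAMTS16 was lower after knockdown (2.38 ± 0.319 against 0.818 ± 0.142 FPKM, log2 change -0.83, SE 0.06, adjusted p = 2.27e-10) and was between 1.996 and 2.47 FPKM in A2780 OlaR and at most 0.0357 FPKM in A2780 (log2 change 1.81, SE 0.03, adjusted p = 4.80e-20). ADAMTS6 was lower in A2780 OlaR than in A2780 (0.172 ± 0.0432 against 1.64 ± 0.117 FPKM, SD, n = 8 each, log2 change -1.05, SE 0.04, adjusted p = 5.64e-17).

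All 4 TIMP genes were tested and called higher after knockdown, beside 38.9% of all genes tested. TIMP1 was between 51.1 and 53.4 FPKM in shCON (median 52.1) and between 113.9 and 149.7 FPKM in shCEBPB (median 128). TIMP2 was between 37.5 and 41.7 FPKM in shCON (median 39.4) and between 104.1 and 119.3 FPKM in shCEBPB (median 107.6). TIMP3, the matrix-bound inhibitor that also blocks several ADAMTS enzymes, was between 9.42 and 10.5 FPKM in shCON (median 9.90) and between 19.96 and 26.2 FPKM in shCEBPB (median 22.2). In these genes, and in TIMP4 with 1.04 to 1.94 against 2.75 to 3.83 FPKM, every shCEBPB library was above every shCON library. The log2 changes were 1.36 in TIMP1 (SE 0.05), 1.52 in TIMP2 (SE 0.04), 1.17 in TIMP3 (SE 0.06) and 0.91 in TIMP4 (SE 0.08). Their adjusted p ranged from 2.99e-16 in TIMP2 to 1.95e-08 in TIMP4 (limma).

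The same inhibitors did not move together between A2780 OlaR and A2780. TIMP1 was between 219.9 and 241.5 FPKM in A2780 (median 235.6) and between 39.7 and 48.1 FPKM in A2780 OlaR (median 43.4), and was lower in the latter by a log2 change of -2.29 (SE 0.04, adjusted p = 1.68e-21, limma). TIMP3 was at most 0.0749 FPKM in A2780 and between 14.4 and 16.0 FPKM in A2780 OlaR (median 15.4), and was higher there by 4.09 (SE 0.03, adjusted p = 5.12e-26). TIMP4 was at 0 in 7 of 8 A2780 libraries and between 1.88 and 2.70 FPKM in A2780 OlaR (log2 change 1.80, SE 0.05, adjusted p = 1.84e-17). A2780 was therefore the group with the most TIMP1 and almost no TIMP3 or TIMP4. TIMP2 differed least, with 26.6 to 30.5 FPKM in A2780 (median 28.8) and 38.4 to 42.0 FPKM in A2780 OlaR (median 40.5), and was higher in A2780 OlaR (log2 change 0.61, SE 0.03, adjusted p = 2.44e-11). TIMP2 shares 367 bp of exon with a long noncoding RNA and TIMP4 shares 170 bp with SYN2, both on the opposite strand.

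Summed over each family, the MMP genes reached 1421 to 1636 FPKM in A2780 (median 1469), of which MMP10 made up 55.3%. The MMP sum was 133 to 159 FPKM in shCON (median 150.1) and 146 to 193 FPKM in A2780 OlaR (median 174), led by MMP14 with 57.9% and 47.1%. In shCEBPB it was 40.5 to 61.6 FPKM (median 55.5), led by MMP17 with 41.4%. The TIMP sum was 101 to 105 FPKM in shCON and 96.2 to 107 FPKM in A2780 OlaR, but 243 to 289.6 FPKM in shCEBPB and 247 to 271 FPKM in A2780. TIMP1 made up 89.1% of the TIMP sum in A2780 and 48.9% in shCEBPB. The MMP sum was thus below the TIMP sum in every shCEBPB library and above it in every library of the other groups. The ADAMTS sum varied least, from a median of 17.1 FPKM in A2780 OlaR to 26.6 FPKM in shCEBPB, where it was highest. Sums are given as mRNA levels, with no test, and do not measure active enzyme or inhibitor protein.

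**Figure D4:**
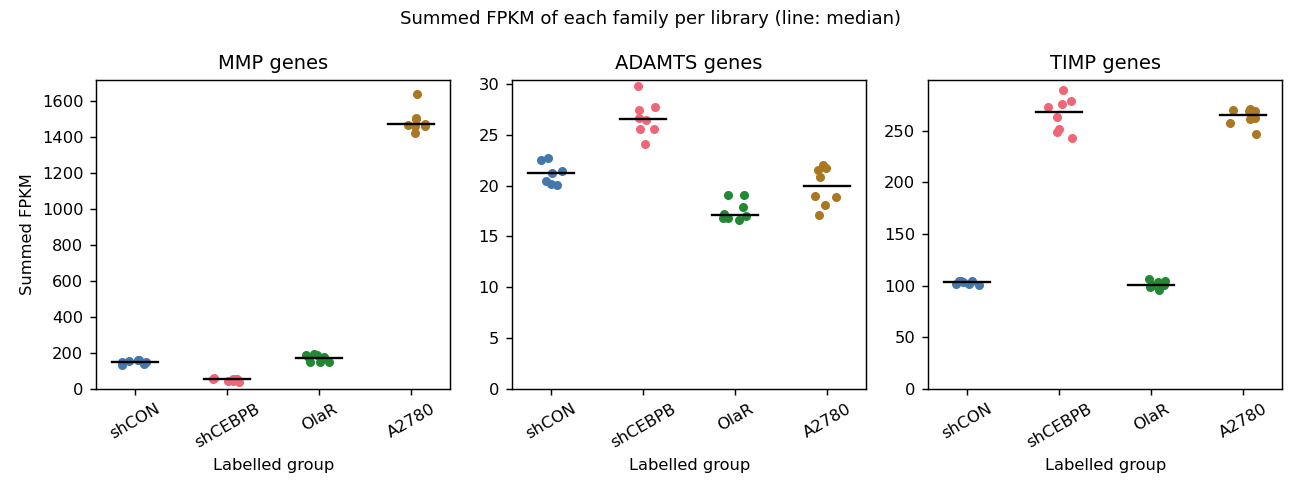
Summed FPKM of the 23 MMP, 19 ADAMTS and 4 TIMP genes in each library, by labelled group (points), with the group median (line); the vertical axes start at 0 and differ between panels. The MMP sum is highest in A2780 (median 1469), and the TIMP sum is high in shCEBPB (median 268) and A2780 (median 265).

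The remaining 20 members were tested in neither comparison, and the highest of them reached 1.71 FPKM (ADAMTS8 in shCEBPB). Beside those already described they are MMP21, MMP23B and MMP26 and ADAMTS2, ADAMTS3, ADAMTS9, ADAMTS12, ADAMTS14, ADAMTS17, ADAMTS18 and ADAMTS19. MMP26 was listed at 0 in all libraries. ADAMTS2, a procollagen N-proteinase, was between 0.603 and 0.937 FPKM in A2780 and at most 0.0827 FPKM in the other groups. ADAMTS14, of the same kind, was at most 0.552 FPKM, and ADAMTS17 was at most 0.464 FPKM and listed at 0 in all shCEBPB libraries.

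Genes that work with the proteases were taken as 5 lists of 52 genes in all. Counts in these lists stand beside 38.9% higher and 45.7% lower of all genes tested after knockdown. In A2780 OlaR against A2780 these shares were 40.1% and 49.7%. Differences of the lists from all genes were not tested. Of 10 tested genes of plasminogen activation and proprotein convertases, which release MMPs from their precursors, 4 rose and 6 fell after knockdown (median log2 change -0.29). FURIN, the convertase that activates membrane-type MMPs, rose from 6.95 to 44.7 FPKM (group means, log2 change 2.58, SE 0.08, adjusted p = 1.95e-15, limma), and the plasminogen activator gene PLAU fell from 7.94 to 1.49 FPKM (log2 change -1.78, SE 0.06, adjusted p = 3.98e-15). SERPINB2, an inhibitor of plasminogen activators, had a mean of 24.2 FPKM in shCON and of 0.00958 FPKM in shCEBPB (log2 change -4.57, SE 0.05, adjusted p = 8.15e-23). In A2780 OlaR against A2780, 7 of the 10 were higher and 3 lower (median 0.96), among them FURIN at 5.02 against 21.8 FPKM (log2 change -1.81, SE 0.06, adjusted p = 1.50e-16).

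Of 8 tested genes for other inhibitors, inducers and receptors of MMPs, 6 rose and 2 fell after knockdown (median log2 change 0.73), while 2 were higher, 5 lower and 1 not called in A2780 OlaR against A2780 (median -0.92). RECK, a membrane-anchored MMP inhibitor, was at 2.53 FPKM in shCON and 5.06 FPKM in shCEBPB (log2 change 0.85, SE 0.07, adjusted p = 6.80e-09, limma), and at 2.75 FPKM in A2780 OlaR and 7.46 FPKM in A2780 (log2 change -1.06, SE 0.07, adjusted p = 3.06e-12). THBS1, thrombospondin-1, was at 76.0 FPKM in shCON and 5.47 FPKM in shCEBPB (log2 change -3.52, SE 0.08, adjusted p = 1.07e-17), and at 90.1 against 0.361 FPKM in A2780 OlaR and A2780 (log2 change 6.19, SE 0.04, adjusted p = 1.40e-27). CD44, a surface receptor that docks MMP9 and MMP14, had a mean of 62.6 FPKM in A2780 OlaR and 0.00121 FPKM in A2780.

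Of 4 tested ADAMTS-like genes, which encode relatives without protease activity, 3 rose and 1 fell after knockdown (median log2 change 1.22), and 2 were higher and 2 lower in A2780 OlaR than in A2780 (median 0.56). Of the ADAM proteases, membrane-bound sheddases, 3 rose, 4 fell and 1 was not called after knockdown (median -0.17), and 3 of 7 were higher and 4 lower in A2780 OlaR (median -0.11). Among matrix substrates 4 of 7 rose and 3 fell after knockdown (median 2.10), and 5 of 10 were higher and 5 lower in A2780 OlaR (median -0.46). The collagen IV genes rose after knockdown, COL4A1 from 8.07 to 58.2 FPKM and COL4A2 from 5.90 to 94.5 FPKM (log2 change 2.75 and 3.83, SE 0.10 and 0.14, adjusted p = 2.01e-14 and 1.72e-14, limma). COL3A1, a fibrillar collagen and substrate of MMP1, had a mean of 358 FPKM in A2780 and of at most 0.388 FPKM in the other groups.

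Because the libraries labelled A2780 OlaR lay close to shCON, these groups were also compared, a comparison chosen after the data had been seen. It shares libraries with both comparisons above. Of 16 members tested, 4 were called higher and 5 lower in A2780 OlaR than in shCON (42.2% of 11547 genes called, 19.3% higher and 22.9% lower), and 7 had ranges that did not overlap, beside 16.6% of all genes. Most called differences were small. TIMP3 was higher by a log2 change of 0.59 (SE 0.04, adjusted p = 7.49e-10, limma) and TIMP4 by 0.46 (SE 0.08, adjusted p = 2.71e-04), TIMP1 was lower (-0.25, SE 0.04, adjusted p = 4.15e-05), and ADAMTS1 was lower (-0.39, SE 0.04, adjusted p = 1.21e-07). MMP28 was higher by 1.02 (SE 0.08, adjusted p = 4.03e-08), with 0.67 for libraries 1 to 3 and 1.24 for libraries 4 to 8. MMP10 and MMP3 were at 2.64 to 3.51 and 1.01 to 1.96 FPKM in all 7 shCON libraries and at 0 in all 8 A2780 OlaR libraries. Both were called lower (adjusted p = 3.01e-15 and 2.87e-10, limma). They passed the filter only through shCON, so their calls and separate ranges carry no weight of their own. MMP19 was lower (-0.42, SE 0.08, adjusted p = 4.83e-04) and MMP17 higher (0.29, SE 0.08, adjusted p = 0.00856), the latter not within libraries 1 to 3 (0.09, adjusted p = 0.421). MMP14 had a log2 change of -0.10 (SE 0.06, adjusted p = 0.153), and MMP15, MMP16, MMP24, TIMP2, ADAMTS13 and ADAMTS16 were not called, although MMP24 was without shCON replicate 2 (0.22, adjusted p = 0.0268) or A2780 OlaR replicate 2 (0.22, adjusted p = 0.0245). Within libraries 1 to 3 alone MMP14 was called lower (-0.33, adjusted p = 8.33e-05).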

How the data were processed

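mRNA of 31 libraries was sequenced by the authors as 150-bp paired-end reads, aligned with TopHat on hg38 and counted with HTSeq, per the study's methods and the submitters' processing notes, which also name FastQC and edgeR. The authors deposited a single table of FPKM, from which all results were computed. The tool and gene annotation behind the FPKM and the use of strand are not given in the sources used here. FPKM are not counts, so the count test of the study was replaced by limma, and neither counting errors nor detection floors were computed. The study's methods call the replicates biological, and the labels do not say whether libraries came from separate cultures, so p-values measure the spread between these libraries.

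In all, 19221 genes were used, without 4 entries that share 2 symbols. All libraries listed 1212 of them at 0, and 0 pairs of libraries were identical. Groups and replicate numbers came from the labels. limma 3.58.1 in R 4.3.3 (lmFit, eBayes with trend) was run as a two-sided test on log2(FPKM + 1), adjusted over all genes tested by the Benjamini-Hochberg method, on the 2 groups of each comparison. Genes needed at least 1 FPKM in a number of libraries equal to that of the smaller group. The pseudocount understates changes of low genes. Log2 changes are minus the median of all genes tested, which was -0.07 in shCEBPB against shCON, -0.12 in A2780 OlaR against A2780 and -0.02 in A2780 OlaR against shCON, and adjusted p are those of the unshifted fit. The fit was tested on simulated data. Python 3.11.15, numpy 2.4.6, pandas 2.3.3, scipy 1.17.1 and matplotlib 3.10.9 were used for the other steps. Positions and exon overlaps came from GENCODE 44 on hg38, and promoters from RefSeq (GRCh38.p14).

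The members and gene lists were chosen with earlier results of these data known. Named genes are all members tested in at least 1 comparison of the study and the 9 genes of the chromosome 11 cluster, with ranges per group where a group mean reached 5 FPKM, and pathway genes named from the lists were chosen after their values were seen. Library ranges 1 to 3 and 4 to 8 follow the numbers of the library codes. The alternatives are given in the closing section. The comparison of A2780 OlaR with shCON was chosen after the data had been seen. A gene of the matrix substrate list is counted but not reported by name here.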

Additional observations from a re-analysis of the deposited data

Results flagged for a closer look

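In 9 of 88 pairs of member and group without a library at 0, 1 library stood apart from the others of its group by Dixon's test, where chance gives about 1 in 20. Replicate 8 of A2780 was the highest for all 3 abundant genes of the chromosome 11 cluster, with MMP10 at 899.8 FPKM (next 837), MMP1 at 603 FPKM (next 548) and MMP3 at 97.8 FPKM (next 87.5). Each of the other flagged values touched a single gene. MMP25 was at 1.49 FPKM in A2780 replicate 1 (next 1.22), and MMP19 was lowest in A2780 replicate 6 at 1.69 FPKM (next 2.20). MMP24 was lowest in A2780 OlaR replicate 2 at 5.43 FPKM (next 6.39), and MMP13 was highest in A2780 OlaR replicate 3 at 0.128 FPKM (next 0.0674). MMP16 was highest in shCON replicate 2 at 1.43 FPKM (next 1.21), and ADAMTS13 was lowest in shCEBPB replicate 3 at 0.0351 FPKM (next 0.123). Leaving out 1 of these libraries changed the call of MMP24 in A2780 OlaR against shCON (adjusted p = 0.0245 without A2780 OlaR replicate 2 and 0.0268 without shCON replicate 2, limma), and, after knockdown, that of MMP15 and MMP19 without shCEBPB replicate 3 (adjusted p = 0.0462 and 0.0715) and that of MMP19 without shCON replicate 2 (adjusted p = 0.114).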

How the results depend on the processing

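No called member changed sign under any alternative. Of members not called, MMP15 after knockdown and ADAMTS13, ADAMTS16, MMP14, MMP15 and MMP24 in A2780 OlaR against shCON changed sign with libraries 1 to 3 or 4 to 8 alone, or (ADAMTS16) without shCON replicate 1 as well. ADAM9, a gene of the ADAM protease list that was not called after knockdown (0.05), was 0.30 with libraries 1 to 3 (adjusted p = 0.0108) and -0.09 with libraries 4 to 8 (adjusted p = 0.019). With no filter on low FPKM, 33 of 43 members tested were called after knockdown (73.5% of all genes) and 36 of 45 in A2780 OlaR against A2780 (77.7%). With at least 5 FPKM these counts were 8 of 9 (84.3%) and 12 of 12 (89.9%), and 4 of 8 (42.8%) in A2780 OlaR against shCON. With a fold of at least 2, 14 of 21 members were called after knockdown, beside 3539 of all genes (29.5%). In A2780 OlaR against A2780 these were 15 of 22 members and 4446 genes (35.7%). In A2780 OlaR against shCON they were 3 of 16 members and 68 genes (0.589%). Members high in 1 group alone are among them, so these shares are not read as a trait of the members. Leaving out each library in turn gave 19 to 20, 22 to 23 and 9 to 10 members, and 10026 to 10275, 11157 to 11235 and 4398 to 5092 genes. These genes were 83.4% to 85.8%, 89.2% to 89.7% and 38% to 44.2% of all genes tested. MMP19 after knockdown was not called under most alternatives (adjusted p up to 0.199), MMP24 after knockdown was not with quantile normalization (adjusted p = 0.447), and MMP15 was with median ratio scaling (adjusted p = 0.0314), for which the cause was not tested. Scaling moved the median of all genes in A2780 OlaR against A2780 from -0.12 to between -0.18 and 0.0.

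Deviations from the group means of libraries with the same replicate number had a mean Pearson's r of -0.148, -0.233 and -0.261 in the 3 comparisons. Other pairs had 0.0234, 0.037 and 0.0387, so libraries of the same replicate number were not more alike than others. No such correlation was computed by the numbers of the library codes, which differ from the replicate numbers in some shCON libraries. With the replicate number as a block 19, 22 and 8 members were called, beside 9885, 10960 and 3436 genes (82.3%, 88% and 29.8% of all genes tested). Of the libraries, 1 of 7, 0 of 8 and 0 of 7 correlated best with their own number. By library number the block gave 9833, 10960 and 3510 genes. Absolute depth is unknown, so levels near 0 do not show absence.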
